A study of Mus musculus with 768 samples.

Results

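The genes described here encode 9 transcription factors of early lymphocytes, taken by name from the 23127 genes of the count file: Runx1, Runx2, Runx3 and their shared partner Cbfb, the Ets factors Ets1 and Fli1, and the Ikaros factors Ikzf1, Ikzf2 and Ikzf3. All 9 were found, and all 9 passed the filter on low counts. Thymus cells of C57BL/6 mice, 6 to 8 weeks of age, were sorted singly and their RNA counted, 96 on each of 8 plates and 768 in all, to follow the role of TCF1, the product of Tcf7, as thymocytes develop. The mice were germline Tcf7-/- mutants, mice with floxed Tcf7 (Tcf7fl/fl) and a Vav-cre or an Lck-cre transgene, and wild type (WT) mice. Vav-cre cuts in blood cells of every lineage, and Lck-cre cuts first in precursors of T cells. The sort gates, all of CD45+ cells without lineage markers, CD4 or CD8, were DN2-3 (CD25+) and DN1 (CD25-, CD44+). Tcf7-/-, Vav-cre and WT gave 1 plate in each gate, and Lck-cre gave 2 plates in the DN2-3 gate and none in the DN1 gate. A level below is the summed count of a gene over the kept cells of a plate per 1000000 summed counts of that plate (CPM), so a level can be compared between plates for 1 gene but not between genes, since no gene length enters it.

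Runx proteins bind DNA as a pair with Cbfb, which holds no DNA contact of its own but raises their affinity and stability. Runx1 is needed from the first steps of the T lineage, whereas Runx3 is best known in CD8 T cells, natural killer (NK) cells and innate lymphoid cells (ILC), and Runx2 in bone formation as well as in lymphocytes. Ets1 and Fli1 recognise sites with a GGAA core, which often lie beside Runx sites in T-cell enhancers. Ikzf1 (Ikaros), Ikzf2 (Helios) and Ikzf3 (Aiolos) are zinc finger proteins that bind DNA as dimers with one another and recruit chromatin remodelling complexes, Ikzf1 across lymphocytes, Ikzf2 in T-cell subsets and Ikzf3 in B cells and in more mature T and NK cells.

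The Runx genes carry Runx-type motifs at their own starts, and these are printed because Runx1 and Runx3 had opposite orders of level between the gates. RefSeq start sites of GRCm38.p6, each with 250 bases before and 50 after the start, were listed for 5 of the 9 genes (Runx1, Runx2, Runx3, Cbfb and Ikzf1), as 8 windows. The letters ACCACA, a motif bound by Runx proteins, stood on one or the other strand in 16.8% of all 32851 listed windows. The pair ACCACAGAACCACA, searched after it had been seen in the Runx3 window, stood in 4 windows of all those listed on either strand. These were the distal start of Runx1, the start of Runx2, the distal start of Runx3 and that of Gm16225, an unnamed gene model whose window overlaps part of that of Runx3 on the other strand. The 30 bases around the pair follow, 5′ to 3′ on the strand of the gene, with ACCACA in capitals.
Runx1 distal, chr16:92826025-92826054, minus strand: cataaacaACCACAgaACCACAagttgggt
Runx2, chr17:44814583-44814612, minus strand: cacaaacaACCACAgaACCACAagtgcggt
Runx3 distal, chr4:135120503-135120532, plus strand: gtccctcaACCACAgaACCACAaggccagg

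In Runx1 and Runx2 the pair began 29 and 24 bases after the annotated start, and in Runx3 it began 134 bases before it. The proximal windows of Runx1 and Runx3, the window of Cbfb and both windows of Ikzf1 held no ACCACA on either strand. The 250 bases before the distal starts of Runx1 and Runx3 are shown to compare these genes, with the same motif in capitals.
Runx1 distal, chr16:92826075-92826324, minus strand: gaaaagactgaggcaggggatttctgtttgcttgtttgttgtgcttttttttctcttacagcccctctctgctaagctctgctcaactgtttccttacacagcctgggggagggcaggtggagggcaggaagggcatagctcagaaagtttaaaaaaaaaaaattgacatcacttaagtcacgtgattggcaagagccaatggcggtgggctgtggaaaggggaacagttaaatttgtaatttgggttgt
Runx3 distal, chr4:135120395-135120644, plus strand: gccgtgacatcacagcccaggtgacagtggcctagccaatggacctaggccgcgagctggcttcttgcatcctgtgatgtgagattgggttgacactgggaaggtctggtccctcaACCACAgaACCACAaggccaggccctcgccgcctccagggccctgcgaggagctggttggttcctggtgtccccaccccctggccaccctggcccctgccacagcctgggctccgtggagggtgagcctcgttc

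A match of letters is a description and not a bound site, and the summed counts do not tell which start a transcript used. GGAA, the Ets core, searched on both strands, stood in 96.0% of all windows and so does not set the members apart.

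The plates kept 58 to 96 cells each, 675 in all, with 1547512 to 8371808 summed counts. Tcf7 itself had 122 CPM in Tcf7-/- DN2-3, 964 in the plate labelled Vav-cre and 762 and 658 in those labelled Lck-cre, against 862 in WT DN2-3. In the DN1 gate it had 98.6 CPM in Tcf7-/- and 368 in the plate labelled Vav-cre, against 134 in WT. Counts per gene do not show the deleted exons, so they do not test whether the floxed part was lost, and the names Vav-cre and Lck-cre below stand for plates so labelled, called mutant plates together with Tcf7-/-. The Tcf7-/- plates carry other labels than the rest and may form a batch, which cannot be told apart from the genotype. Cells with at least 2 counts of at least 2 of 6 NK receptor and granule genes made up 59 of 96 kept Tcf7-/- DN1 cells and 14 of 58 Vav-cre DN1 cells, against 84 of 86 WT DN1 cells. Kit, a receptor gene of early progenitors, had 76.2 CPM in Tcf7-/- DN1 and 130 CPM in Vav-cre DN1, against 10.1 CPM in WT DN1. In sums over cells, fewer cells of a type and less RNA per cell cannot be told apart.

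Runx3, the Runx factor of cytotoxic and innate lymphocytes, was far lower in DN2-3 than in DN1 plates. Its level was 52.1 CPM in Tcf7-/- DN2-3, 65.3 in Vav-cre DN2-3, 43.8 and 49.99 in the Lck-cre plates and 48.2 in WT DN2-3, against 214, 190 and 234 CPM in Tcf7-/-, Vav-cre and WT DN1. The gates did not overlap: every DN2-3 plate was below every DN1 plate, and within each gate the plates of different genotypes lay close together. The mean was 51.9 ± 8.07 CPM in the DN2-3 gate (SD, n = 5 plates) and 213 ± 22.0 CPM in the DN1 gate (SD, n = 3 plates). The log2 fold change of DN2-3 over DN1, fitted with genotype as a term, was -1.93 (SE 0.32, adjusted p = 0.0115, edgeR's quasi-likelihood test with Benjamini-Hochberg adjustment over 10602 genes). Since Lck-cre had no DN1 plate, its plates add to the estimate of spread but hardly bear on the fold change, which was -1.95 without them. Runx3 was the single member called at an adjusted p under 0.05, 1 of 9, where 6.69% of all tested genes were called, and 3.74% were called lower. The call was lost without the Tcf7-/- DN1 plate (-1.91, adjusted p = 0.0552 in the same test), without the Tcf7-/- DN2-3 plate (-1.96, adjusted p = 0.0570) and without both (-1.91, adjusted p = 0.0604), at nearly the same fold change. The labels name no animals, so these p-values measure only the spread between plates.

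Runx1, needed for early T-lineage cells, had the opposite order of gates. It had 214 CPM in Tcf7-/- DN2-3, 235 in Vav-cre DN2-3, 276 and 256 in the Lck-cre plates and 389 in WT DN2-3, against 172, 148 and 49.8 CPM in Tcf7-/-, Vav-cre and WT DN1. All 5 DN2-3 plates were above all 3 DN1 plates, and both extremes were WT plates. The fitted log2 fold change was 1.31 (SE 0.45, adjusted p = 0.124, edgeR's quasi-likelihood test), which missed the threshold, and 5 of the alternatives tried brought it past. Without single plates it ran from 0.62 to 1.82. Within genotypes DN2-3 was 1.24-fold DN1 in Tcf7-/- (interval 1.14 to 1.36), 1.59-fold in Vav-cre (1.37 to 1.84) and 7.81-fold in WT (6.97 to 8.77). These are 95% intervals for counting error only, as are all intervals below. In order of level, the neighbouring intervals overlapped from the first Lck-cre plate down to Tcf7-/- DN2-3, and again between Tcf7-/- and Vav-cre DN1. In Vav-cre DN1 1 cell held 54.1% of the Runx1 counts.

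**Figure D1:**
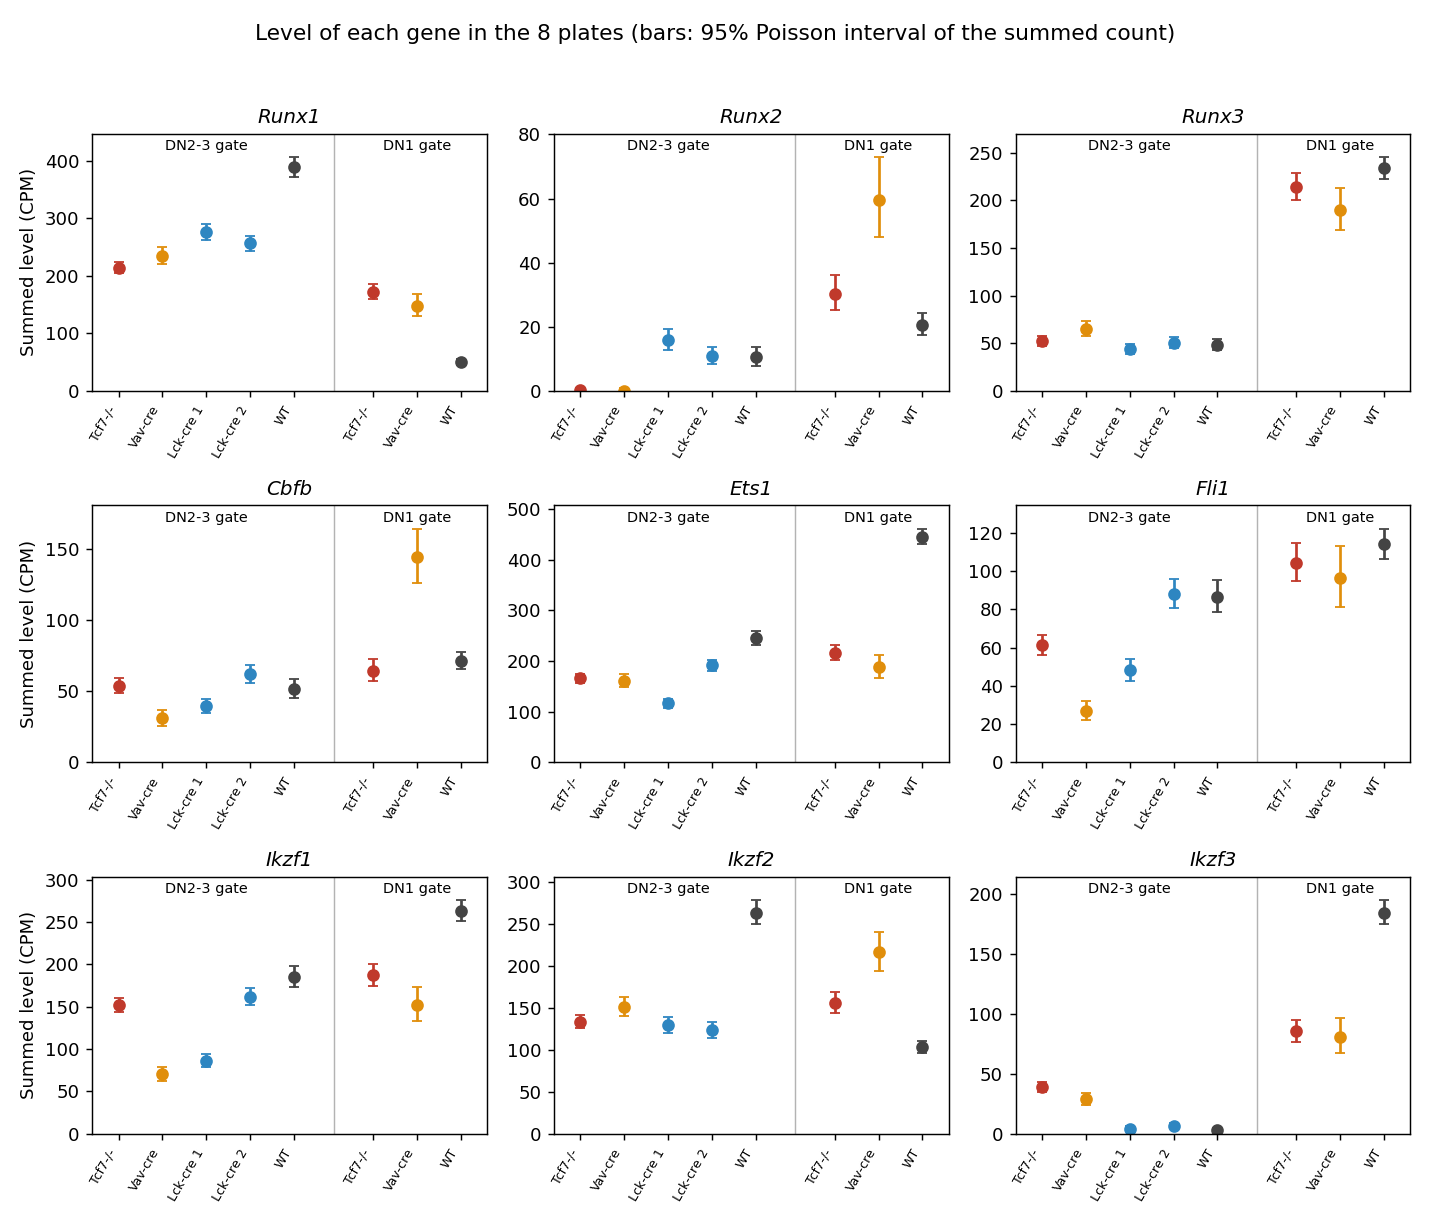
Level in CPM (vertical axis, from 0) of each of the 9 genes in the 5 DN2-3 plates (left) and 3 DN1 plates (right), with colours for genotype and bars for the 95% Poisson interval of the summed count. Runx1 stood above 200 CPM in every DN2-3 plate and below in every DN1 plate, and Runx3 was at 43.8 to 65.3 CPM in DN2-3 plates and at 190 to 234 CPM in DN1 plates.

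The makeup of the Runx counts therefore differed between the gates, a comparison within each plate that does not depend on its total. Runx3 made up 19.6% of the summed counts of Runx1, Runx2 and Runx3 in Tcf7-/- DN2-3 (interval 17.9 to 21.3), 21.7% in Vav-cre DN2-3, 13.1% and 15.8% in the Lck-cre plates and 10.8% in WT DN2-3 (9.52 to 12.1). In the DN1 gate Runx3 made up 51.4% for Tcf7-/- (49.1 to 53.8) and 47.8% for Vav-cre, against 76.9% in WT (75.1 to 78.7). In both gates the WT plate lay at the end. The Tcf7-/- and Vav-cre plates lay nearer to the middle: higher than WT in DN2-3, as the Lck-cre plates also were, and lower than WT in DN1. The Vav-cre DN1 share rests in part on 1 cell, which held 54.1% of the Runx1 counts of that plate.

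Single cells showed the same split between the gates, but in the share with Runx3 alone Vav-cre DN1 did not lie below WT DN1. With every cell thinned to 10000 counts, which left 596 cells, Runx3 counts without Runx1 counts were found in 4.49% of Tcf7-/- DN2-3 cells, 1.54% of Vav-cre, 3.53% and 5.41% of Lck-cre and 1.25% of WT DN2-3 cells, against 27.4%, 40.8% and 40.7% of Tcf7-/-, Vav-cre and WT DN1 cells. Runx1 counts without Runx3 counts were found in 47.2% of Tcf7-/- DN2-3 cells, 52.3% of Vav-cre, 62.4% and 51.4% of Lck-cre and 65% of WT DN2-3 cells, against 21.9%, 10.2% and 8.64% in the DN1 gate in the same order of genotypes. Tcf7-/- DN1 stood out in that gate, as 28.8% of its cells held counts of both genes, against 4.08% in Vav-cre and 11.1% in WT DN1. Both were found together about as often as the product of the single shares gives, for example 28.8% beside 28.5% in Tcf7-/- DN1 and 11.1% beside 10.2% in WT DN1. Before thinning, the share with Runx3 alone was 11.5% of Tcf7-/- DN1 cells and 1.15% to 7.89% of DN2-3 cells. A cell without a count at this depth may still express the gene.

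**Figure D2:**
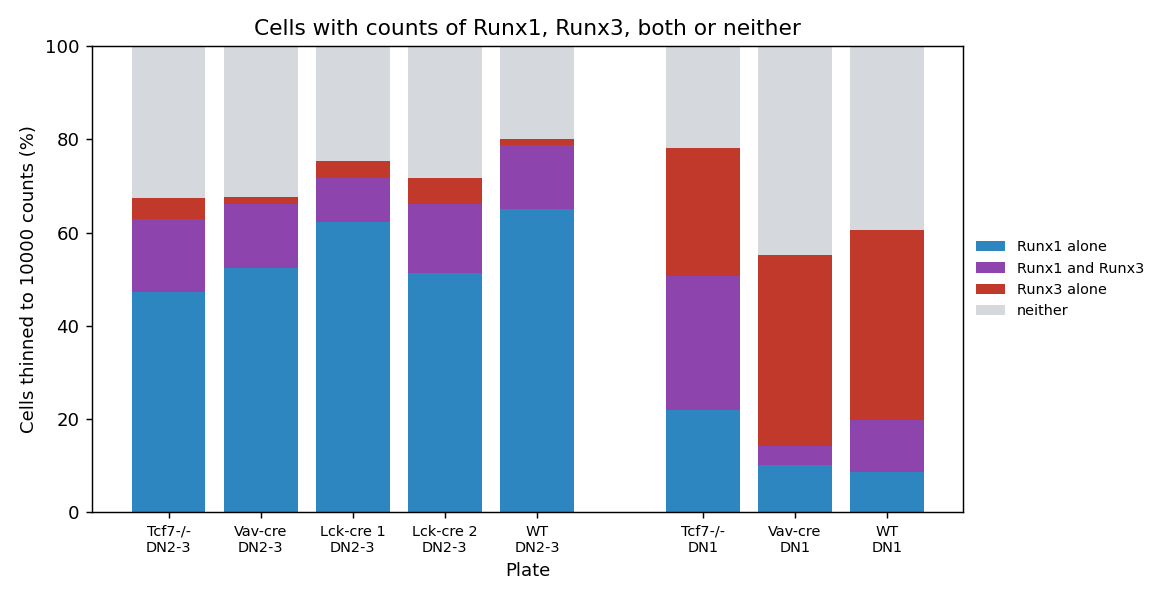
Percent of cells (vertical axis, 0 to 100) with counts of Runx1 alone, of both genes, of Runx3 alone or of neither, with every cell thinned to 10000 counts, for the 5 DN2-3 plates (left) and 3 DN1 plates (right). Runx3 alone was found in 1.25% to 5.41% of DN2-3 cells and in 27.4% to 40.8% of DN1 cells.

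Runx2, the bone-forming Runx factor, was all but missing from the DN2-3 plates of Tcf7-/- and Vav-cre. Plates of these genotypes are called the plates of early deletion below, by their labels alone. Tcf7-/- DN2-3 held 2 counts (0.239 CPM) and Vav-cre DN2-3 held 0, while the Lck-cre plates had 15.7 and 10.8 CPM and WT DN2-3 had 10.4 CPM from 52 counts. In the DN1 gate it had 30.3 CPM in Tcf7-/-, 59.5 in Vav-cre and 20.5 in WT. The DN2-3 plates were all below the DN1 plates in CPM, though the intervals of the first Lck-cre plate (12.7 to 19.2) and WT DN1 (17.3 to 24.1) overlapped. Once cells were thinned the gates overlapped. The Lck-cre plates then had 16.5 and 13.5 CPM and WT DN2-3 had 7.5 CPM, against 6.17 CPM in WT DN1. Tcf7-/- and Vav-cre DN1, at 32.9 and 57.1 CPM, stayed above every DN2-3 plate. The plates of early deletion were the lowest in the DN2-3 gate and the highest in the DN1 gate. The 0 counts in 76 Vav-cre DN2-3 cells allow a share of up to 3.95% of cells with a count by the limit of 3 counts (4.74% by the Clopper-Pearson bound). A floor of 3 counts in the plate puts Vav-cre at least 15.3-fold lower than WT DN2-3, while the upper end of the 95% interval of the ratio, at 0.0835-fold WT, allows a smaller difference. The WT DN2-3 level rests on few cells, as 1 cell held 28.8% of its counts, and in the first Lck-cre plate 1 cell held 47.9%. With cells thinned 2.5% of WT DN2-3 cells held a count (interval 0.304 to 8.74). This overlaps the bounds for 0 in Tcf7-/- DN2-3 (4.06%) and Vav-cre DN2-3 (5.52%). In summed counts Tcf7-/- DN2-3 was 0.0229-fold WT DN2-3 (interval 0.00270 to 0.0868). The fitted log2 fold change of DN2-3 over DN1, -5.39 (adjusted p = 0.0994, edgeR's quasi-likelihood test), rests on these near-zero plates and is no bound. It passed the threshold without the WT DN1 plate (-7.82) and without the WT DN2-3 plate (-7.81).

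Cbfb, the partner that all Runx proteins share, was measured at 53.9 CPM in Tcf7-/- DN2-3, 30.8 in Vav-cre DN2-3, 39.3 and 61.8 in the Lck-cre plates and 51.6 in WT DN2-3, against 64.4, 144 and 71.4 CPM in Tcf7-/-, Vav-cre and WT DN1. The gates did not overlap, but only Vav-cre DN1 stood clear of the rest, with 40.4% of its Cbfb counts from 1 cell. With cells thinned the gates overlapped, with Tcf7-/- DN2-3 at 75.3 CPM and WT DN1 at 53.1 CPM. The log2 fold change was -0.95 (SE 0.44, adjusted p = 0.251, edgeR's quasi-likelihood test).

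Among the Ets factors, Ets1, which acts in T, B and NK cell development, had 166 CPM in Tcf7-/- DN2-3, 161 in Vav-cre DN2-3, 116 and 191 in the Lck-cre plates and 245 in WT DN2-3, against 216, 188 and 445 CPM in Tcf7-/-, Vav-cre and WT DN1. The gates overlapped and WT was the highest plate of each gate. Fli1, which acts in blood stem cells, megakaryocytes and lymphocytes, had 61.3 CPM in Tcf7-/- DN2-3, 26.7 in Vav-cre DN2-3, 48.1 and 88.0 in the Lck-cre plates and 86.6 in WT DN2-3, against 105, 96.3 and 114 CPM in Tcf7-/-, Vav-cre and WT DN1. Fli1 did not overlap between the gates, though the counting intervals of the highest DN2-3 plate and of Vav-cre DN1 overlapped. With cells thinned the gates overlapped, with WT DN2-3 at 97.5 CPM of Fli1 and Tcf7-/- DN1 at 89.0 CPM. The log2 fold changes of DN2-3 over DN1, -0.47 for Ets1 (SE 0.31, adjusted p = 0.419) and -0.97 for Fli1 (SE 0.38, adjusted p = 0.169), missed the threshold in edgeR's quasi-likelihood test.

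Of the Ikaros factors, Ikzf3, known from mature lymphocytes, had the widest range. It had 38.6 CPM in Tcf7-/- DN2-3, 28.8 in Vav-cre DN2-3, 4.42 and 6.68 in the Lck-cre plates and 2.81 in WT DN2-3, against 85.3, 80.8 and 184 CPM in Tcf7-/-, Vav-cre and WT DN1. The gates did not overlap, and the plates of each gate fell in steps: the plates of early deletion stood above the other DN2-3 plates and below WT in DN1. All 14 Ikzf3 counts of WT DN2-3 came from 1 cell, as did 87.2% of those of the second Lck-cre plate. The log2 fold change was -2.48 (SE 0.96, adjusted p = 0.171, edgeR's quasi-likelihood test), and it ran from -3.66 to -1.19 without single plates.

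Ikzf1, the founding member of the family, had 152 CPM in Tcf7-/- DN2-3, 70.5 in Vav-cre DN2-3, 86.5 and 162 in the Lck-cre plates and 185 in WT DN2-3, against 187, 153 and 264 CPM in Tcf7-/-, Vav-cre and WT DN1. Ikzf2 had 133 CPM in Tcf7-/- DN2-3, 151 in Vav-cre DN2-3, 130 and 123 in the Lck-cre plates and 264 in WT DN2-3, against 156, 216 and 103 CPM in Tcf7-/-, Vav-cre and WT DN1. Both genes overlapped between the gates. Ikzf1 was highest in the WT plate of each gate, whereas Ikzf2 was highest in WT among DN2-3 plates and lowest in WT among DN1 plates. Their log2 fold changes were -0.62 (SE 0.32, adjusted p = 0.300) and 0.22 (SE 0.34, adjusted p = 0.768) in edgeR's quasi-likelihood test.

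Within the Ikaros counts, Ikzf3 made up 11.9% of Ikzf1, Ikzf2 and Ikzf3 together in Tcf7-/- DN2-3 and 11.5% in Vav-cre DN2-3, 2.003% and 2.29% in the Lck-cre plates and 0.622% in WT DN2-3 (interval 0.341 to 1.04). In the DN1 gate it was 19.9% for Tcf7-/- and 18.0% for Vav-cre, against 33.4% in WT (31.9 to 34.9). As with Runx3 among the Runx genes, all mutant plates lay between the WT plates of both gates. In the DN2-3 gate the plates of early deletion lay further from WT than the Lck-cre plates. The WT DN2-3 share comes from 14 Ikzf3 counts of 1 cell, and its interval covers counting error only.

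Over the whole group, 6 of 9 genes had gates that did not overlap in CPM, 1 with DN2-3 above and 5 with DN2-3 below, where 23.7% of all tested genes did not overlap, 11.4% with DN2-3 above and 12.3% below. Each of the 6 genes without overlap in CPM had an exact two-sided permutation p of 0.0357 over the plates, the smallest that 56 arrangements allow, and an adjusted p of 0.150. Gates without overlap fix this p in advance, so it adds nothing to the lack of overlap. An unadjusted p under 0.05 was reached by 5 of 9 members, where 22.3% of all tested genes reached it in edgeR's quasi-likelihood test. The median log2 fold change was -0.95 over the 9 genes and 0.02 over all tested genes. Markers of several cell types, though not of all, differed between the gates as well. Summed NK markers ran from 1197 to 9696 CPM in DN2-3 plates, mostly Gzma, and from 2406 to 5715 CPM in DN1 plates, with 7 of 9 lower in every DN2-3 plate. Summed ILC and LTi (lymphoid tissue inducer) markers ran from 298 to 457 CPM in DN2-3 and from 1910 to 4249 CPM in DN1 plates, with 6 of 9 lower. Markers of later DN thymocytes ran from 2429 to 4073 CPM in DN2-3 and from 322 to 514 CPM in DN1 plates, with 5 of 6 higher. Summed B-cell markers ran from 57.1 to 139 CPM in DN2-3, almost all Cd79b, and from 144 to 346 CPM in DN1 plates, with 4 of 5 lower. Summed myeloid and dendritic cell markers ran from 1.37 to 83.4 CPM in DN2-3 and from 293 to 1791 CPM in DN1 plates, with 3 of 7 lower. Summed T-cell markers overlapped, at 4946 to 6522 CPM in DN2-3 and 1332 to 5216 CPM in DN1 plates, with 1 of 6 higher. Sums of early progenitor markers (11.7 to 40.6 against 23.9 to 484 CPM) and of mast and basophil markers (33.1 to 483 against 1.41 to 421 CPM) overlapped too. Stroma markers, mostly Epcam, ran from 74.1 to 274 CPM in DN2-3 and from 7.69 to 23.9 CPM in DN1 plates. The part that these cell types have in the levels of the 9 genes was not tested across all plates.

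**Figure D3:**
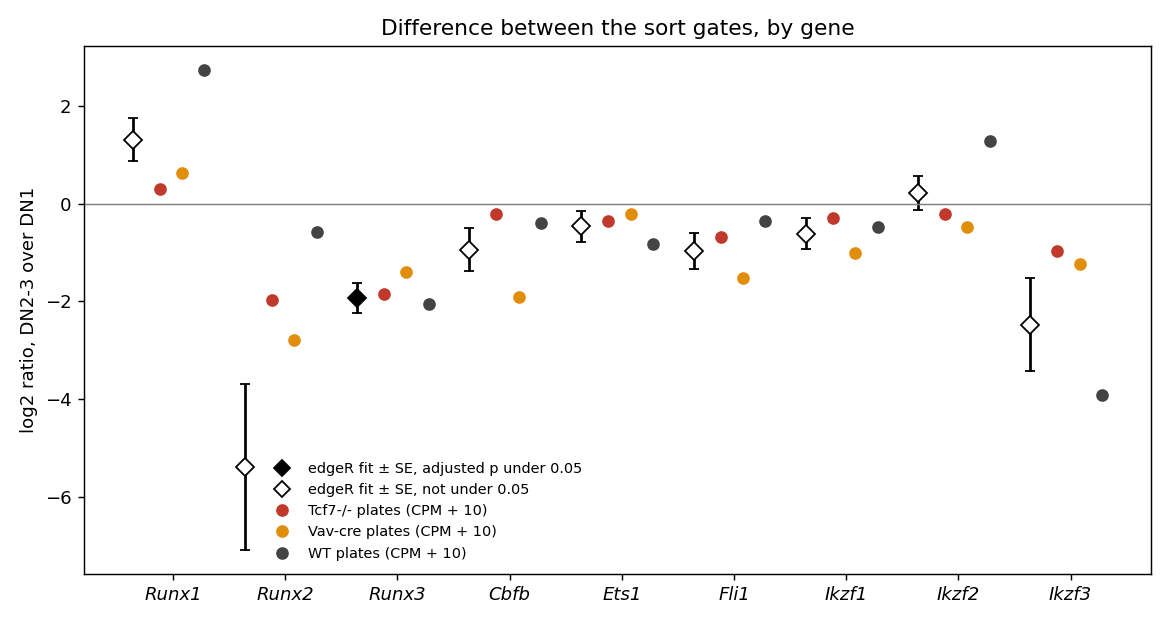
Log2 ratio of DN2-3 over DN1 (vertical axis) for each gene: diamonds with bars are the edgeR fit ± SE over 8 plates, filled where the adjusted p was under 0.05, and dots are the ratios of CPM + 10 within Tcf7-/-, Vav-cre and WT. The Lck-cre plates enter the fit but, without a DN1 plate, hardly bear on its ratio. Runx3 is the single filled diamond, at -1.93, with its dots close together, while those of Runx1, Runx2, Cbfb, Ikzf2 and Ikzf3 are spread.

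Shares of cells with a count had the same order of gates as the levels for Runx1, Runx3 and Ikzf3. With cells thinned to 10000 counts, Runx1 was found in 62.9% to 78.8% of DN2-3 cells and 14.3% to 50.7% of DN1 cells. Within the DN1 gate the Runx1 share did not follow the level, as Vav-cre DN1 had a count in 14.3% of thinned cells and 20.7% as counted, against 19.8% and 30.2% in WT DN1. The intervals of these Vav-cre and WT shares overlapped, with cells thinned and as counted. Ikzf2 was found in 35.96% to 44.6% of mutant DN2-3 cells, against 63.8% in WT DN2-3, and in 47.9% of Tcf7-/- and 42.9% of Vav-cre DN1 cells, against 22.2% in WT DN1. Runx3 was found in 12.9% to 20.3% of DN2-3 cells and 44.9% to 56.2% of DN1 cells. Ikzf3 was found in 16.9% of Tcf7-/- DN2-3 cells, 4.62% of Vav-cre, 2.35% and 4.05% of Lck-cre and 1.25% of WT DN2-3 cells, and in 26.5% to 54.3% of DN1 cells. As counted, without thinning, the Ikzf3 shares were 33.3%, 14.5%, 6.59%, 3.45% and 1.14% of DN2-3 cells in the same order, at medians of 70003, 43900.5, 58220, 45449 and 43592.5 counts per cell. In Tcf7-/- DN2-3 the Ikzf3 counts were thus spread over many cells, whereas WT had 1 cell with a count.

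**Figure D4:**
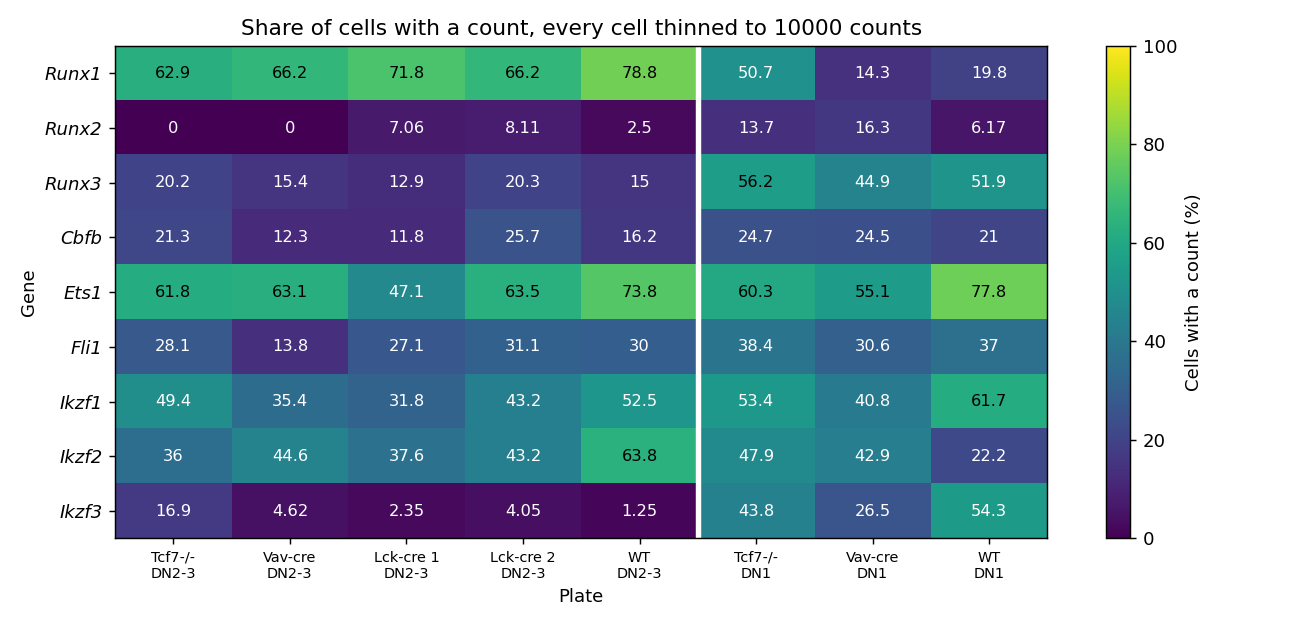
Percent of cells with at least 1 count of each gene (rows) in each plate (columns, DN2-3 left of the white line and DN1 right), with every cell thinned to 10000 counts. Runx3 and Ikzf3 are brighter in DN1 columns, Runx1 in DN2-3 columns, and Runx2 is at 0 in Tcf7-/- and Vav-cre DN2-3, against 2.5% in WT DN2-3.

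Each genotype was set against the WT plate of its gate to ask how the factors differed on plates labelled for Tcf7 deletion at different stages. No test of genotype was run, since each genotype other than Lck-cre had 1 plate a gate, and the comparisons in a gate share their WT plate. The Lck-cre plates, the only pair of the same kind, differed between themselves by a median absolute log2 ratio of 0.31 over the 9 genes, with a maximum of 0.83 for Ikzf1, against 0.31 over 8004 genes, of which 5.38% differed at least 2-fold. Log2 ratios have 10 CPM added, which shrinks those of low genes such as Runx2 and Ikzf3.

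In the DN2-3 gate Runx1, Ikzf2, Ets1 and Ikzf1 were lower than WT on all 4 mutant plates. The log2 ratio over WT was -0.83 in Tcf7-/-, -0.70 in Vav-cre and -0.48 and -0.58 in the Lck-cre plates for Runx1, and -0.93, -0.76, -0.97 and -1.04 for Ikzf2 in the same order. For both genes these ratios were larger in size than the log2 ratio between the Lck-cre plates, 0.10 for Runx1 and 0.06 for Ikzf2. That is 1 pair of plates, however, and 1 gene's difference does not measure the spread between plates. Over all genes the absolute log2 ratio of this pair had a 95th percentile of 1.01, above every Runx1 ratio in size. Ets1 had -0.54 in Tcf7-/-, -0.58 in Vav-cre and -1.02 and -0.34 in the Lck-cre plates, which differed from each other by -0.67, as much as the mutant plates differed from WT. Ikzf1 had -0.27, -1.28, -1.02 and -0.19 in the same order. Runx3 had 0.09, 0.37, -0.11 and 0.04. With cells thinned the Runx3 ratio was 0.82 in Tcf7-/-, 0.66 in Vav-cre and 0.56 for the mean of the Lck-cre plates, all above WT, and with cells weighted equally it was 0.88 in Vav-cre. The Ikzf2 ratio of Vav-cre was -0.30 with cells thinned.

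Past 2-fold from WT in Tcf7-/- DN2-3 was 1 of 9 genes, Ikzf3, higher (3.19% of all genes were 2-fold higher), and none was lower (10.5%), with Runx2 just inside at -0.998. In Vav-cre DN2-3 1 gene was 2-fold higher (5.77%), Ikzf3, and 3 were lower (10.5%), namely Runx2, Fli1 and Ikzf1. In Lck-cre DN2-3 none was higher (0.935%) and 1 was lower (3.48%), Ikzf2, at a mean log2 ratio of -1.005. Ikzf3 was 13.7-fold WT in Tcf7-/- (interval 8.06 to 25.4) and 10.2-fold in Vav-cre (5.87 to 19.2), but with cells thinned its log2 ratio in Vav-cre was 0.48 in place of 1.60. Fli1 was 0.308-fold WT in Vav-cre (0.249 to 0.379) and Ikzf1 0.380-fold (0.333 to 0.433), while the first Lck-cre plate also lay below WT for both genes, at log2 ratios of -0.73 and -1.02, and the second lay at 0.02 and -0.19.

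In the DN1 gate Runx1, Runx2 and Ikzf2 were higher than WT on both mutant plates, and Ets1, Ikzf3, Ikzf1, Runx3 and Fli1 were lower. The log2 ratio of Runx1 was 1.61 in Tcf7-/- and 1.40 in Vav-cre, that of Ets1 -1.01 and -1.20, and that of Ikzf3 -1.03 and -1.10. Without the highest cell of each plate the Runx1 ratio was 1.74 in Tcf7-/- and 0.85 in Vav-cre. A Runx1 count was held by 12 of 58 Vav-cre DN1 cells (20.7%, interval 11.2 to 33.4), against 26 of 86 WT DN1 cells (30.2%, 20.8 to 41.1). These intervals overlap, and the plates differed in depth, at medians of 19293 and 66572 counts per cell. With cells weighted equally the Ets1 and Ikzf3 ratios fell inside 2-fold on both plates. Past 2-fold in Tcf7-/- DN1 were 1 of 9 genes higher (10.4% of all genes) and 2 lower (5.34%), and in Vav-cre DN1 2 higher (18%), Runx1 and Runx2, and 2 lower (9.64%). Runx3 was at -0.12 and -0.29 in this gate. In Tcf7-/- and Vav-cre DN1, Ikzf2 was at 0.55 and 0.999, Runx2 at 0.40 and 1.19 and Ikzf1 at -0.47 and -0.75. Fli1 was at -0.12 and -0.22, and its fold intervals include no difference on both plates.

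**Figure D5:**
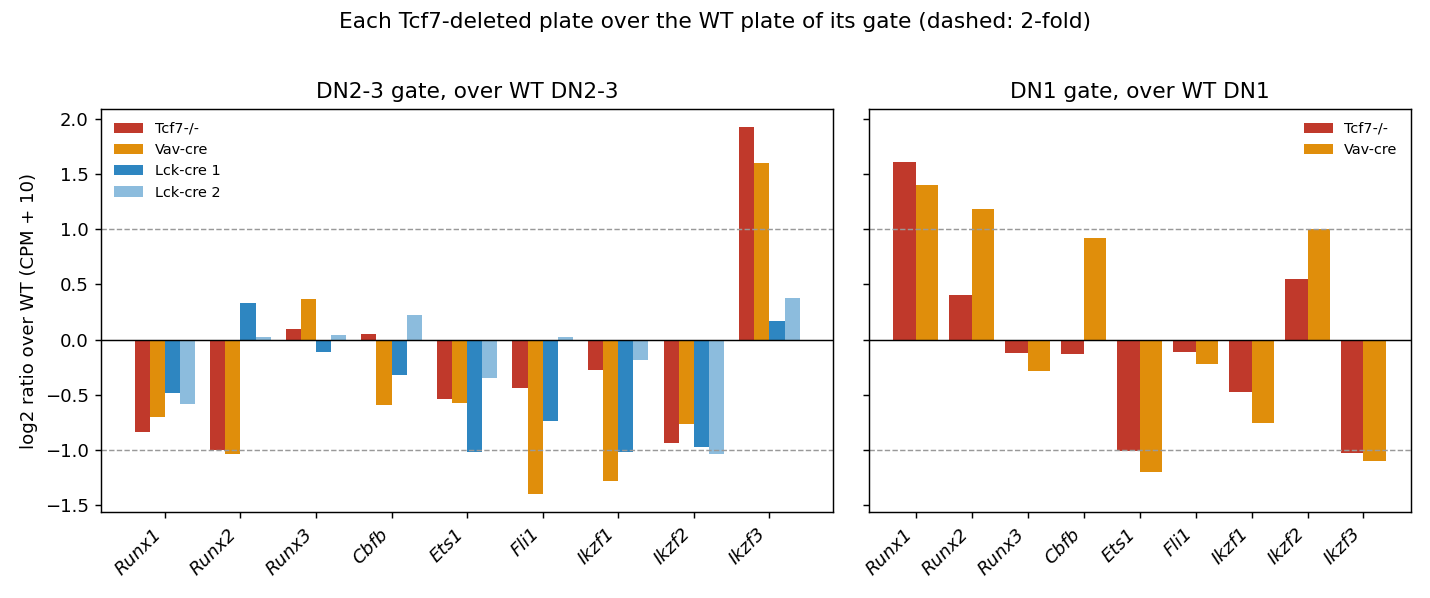
Log2 ratio of CPM + 10 over WT (vertical axis) for each gene, on the 4 mutant plates of the DN2-3 gate (left) and the 2 of the DN1 gate (right), with dashed lines at 2-fold. Runx1 is below WT in the DN2-3 gate and above it in the DN1 gate, Ikzf3 is the other way round (though its Lck-cre mean is -0.11 with cells weighted equally), and Runx3 is between -0.29 and 0.37 as plotted, against 0.82 in Tcf7-/- DN2-3 with cells thinned.

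Since the DN1 plates held different shares of NK receptor-positive cells, the levels were also taken within those cells. Runx1 had 130 CPM in 59 Tcf7-/- cells and 52.6 CPM in 14 Vav-cre cells, against 48.8 CPM in 84 WT cells. In these cells the Vav-cre and WT intervals overlapped (31.7 to 82.1 against 43.8 to 54.3), while Tcf7-/- stayed apart (117 to 143). Ets1 had 159 and 233 CPM in these Tcf7-/- and Vav-cre cells, against 448 in WT, and Ikzf3 68.2 and 77.5, against 180 in WT. These levels come from 1 plate a genotype, and the class may hold different kinds of cell on each plate. Over whole DN1 plates, summed T-cell markers had 2532 CPM in Tcf7-/- and 1332 CPM in Vav-cre, against 5216 CPM in WT. The part of cell makeup within the class was not tested. Ikzf2 had 144 and 94.1 CPM, against 97.04 in WT.

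NK receptor-positive cells were compared with the other DN1 cells on the Tcf7-/- and Vav-cre plates, since WT had only 2 other cells. Of the 9 genes 0 were called (0.44% of all tested genes were) in edgeR's quasi-likelihood test and 0 in DESeq2, and 1, Runx1, had an unadjusted p under 0.05 (4.04% of all genes), at a log2 fold change of -1.32 and an adjusted p of 1. Runx3 had 186 and 241 CPM in NK receptor-positive Tcf7-/- and Vav-cre cells, against 280 and 174 CPM in the other cells of those plates. Its high level in the DN1 gate was therefore found in both kinds of cell.

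In the DN2-3 gate, cells with Cpa3, an early and mast-cell gene, were set against cells with Ptcra, the pre-T-cell receptor chain, on the 3 plates with at least 5 of each. Of the 8 genes tested 0 were called (0.337% of all genes), DESeq2 also called none of them, and Runx3 and Ikzf2 had an unadjusted p under 0.05 (6.77%) in edgeR's quasi-likelihood test. Runx3 had 134 and 41.7 CPM in Cpa3-positive cells of the Lck-cre plates and 82.8 in those of WT, against 21.6, 23.1 and 42.4 CPM in Ptcra-positive cells (log2 fold change 1.48, adjusted p = 0.643). Ikzf2 had 352, 130 and 377 CPM in Cpa3-positive cells, against 97.9, 101 and 160 CPM in Ptcra-positive cells (1.16, adjusted p = 0.244). Both were higher in the Cpa3-positive cells of all 3 plates, and so were Fli1 (log2 fold change 0.87), Ikzf1 (0.68) and Runx1 (0.21). Fli1 had 62.8, 127 and 124 CPM in Cpa3-positive cells, against 28.0, 91.5 and 63.2 CPM in Ptcra-positive cells, in the same order of plates. Runx2, Cbfb and Ets1 differed in direction between the plates. Ikzf2 passed the threshold without the second Lck-cre plate (1.53, adjusted p = 0.00395).

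Relatives and partners were followed over the gates in the same fit. Of 14 tested other Ets family genes 0 were called higher in DN2-3 (2.95% of all genes were) and 1 lower (3.74%): Spi1, the myeloid and B-cell factor PU.1, ran from 0.239 to 8.22 CPM in DN2-3 and from 60.3 to 140 CPM in DN1 plates (log2 fold change -5.99, adjusted p = 0.0136), and the sums of myeloid and B-cell markers given above were lower in DN2-3 plates too. Neither of 2 tested Ikaros relatives was called. Of 21 tested corepressor genes 1 was called higher (2.95% of all tested genes were) and 0 lower (3.74%): Hdac2, a histone deacetylase, ran from 95.9 to 166 CPM in DN2-3 and from 42.0 to 45.9 CPM in DN1 plates (1.51, adjusted p = 0.0200). The median log2 fold change was -0.37 for other Ets genes and 0.00 for the corepressors. For the 2 Ikaros relatives it was 2.51, the middle of 4.58 for Ikzf4 and 0.45 for Ikzf5. Ikzf4 was near the floor in the DN1 plates, at 0 to 3.23 CPM.

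Of 17 tested genes known to be bound or regulated by Runx factors in T or NK cells, 4 were called higher (2.95% of all tested genes were) and 7 lower (3.74%), with a median log2 fold change of -3.17, against 0.02 over all tested genes. Those with the lowest adjusted p were Il7r, Gzmb, Ptcra, Rag1 and Tbx21. The interleukin 7 receptor gene Il7r ran from 155 to 269 CPM in DN2-3 and from 1059 to 3098 CPM in DN1 plates, and the granzyme gene Gzmb from 0 to 46.1 and from 185 to 701 CPM. The recombinase gene Rag1 ran from 104 to 258 CPM in DN2-3 and from 0 to 10.3 CPM in DN1 plates, and Ptcra from 147 to 598 and from 1.12 to 51.0 CPM. Tbx21, which encodes the NK and T helper factor T-bet, was lower in DN2-3, at 0 to 0.239 CPM, against 12.9 to 114 CPM in DN1 plates.

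Of 13 tested genes known to be bound or regulated by Ikaros in lymphocytes, 5 were called higher (2.95% of all tested genes were) and 1 lower (3.74%), with a median of 2.32. The called genes were Il7r and Ptcra again, Notch1 and Notch3, which encode receptors of the Notch pathway, Hes1, a Notch target, and Dntt, which adds bases at receptor gene joints. Dntt ran from 1074 to 3037 CPM in DN2-3 and from 13.5 to 217 CPM in DN1 plates, and Notch1 from 55.8 to 75.3 and from 10.3 to 15.9 CPM. Several of these genes are themselves markers of the cell types that differ between the gates, and Il7r, Ptcra and Cd8a stand in both lists.

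The genes whose levels over the 8 plates were most like those of each member were taken by Pearson's r of log2(CPM + 10) among 4367 genes, as a description over points that share plate, depth and cell makeup. For Runx1 they were Myb (r = 0.993), Khdrbs1 (0.979) and Rcsd1 (0.974), and for Runx3 they were Ly6g5b (0.997), Il2rb (0.997) and Cd52 (0.995). For Ikzf3 they were Zap70 (0.984), Gimap4 (0.974) and Tmsb10 (0.972), and for Runx2 they were Cd84 (0.982), Zc3h7a (0.971) and Tbc1d1 (0.966). The nearest gene was Tnfaip8 for Cbfb (0.945), Dgkz for Ets1 (0.937), Zc3h18 for Fli1 (0.961), Rheb for Ikzf1 (0.955) and Prpf39 for Ikzf2 (0.953). Among the members themselves Ikzf1 and Fli1 ran together (0.931) and so did Ikzf3 and Runx3 (0.908), whereas Ikzf3 and Runx1 ran opposite (-0.896), as did Runx3 and Runx1 (-0.809).

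On GRCm38 the genes lie at chr16:92601466-92826149 (Runx1), chr17:44495987-44814797 (Runx2), chr4:135120652-135177990 (Runx3), chr8:105170674-105217989 (Cbfb), chr9:32636221-32757820 (Ets1), chr9:32422204-32542861 (Fli1), chr11:11685003-11772926 (Ikzf1), chr1:69531214-69687245 (Ikzf2) and chr11:98464902-98546031 (Ikzf3) in GENCODE vM21. Ets1 and Fli1 are thus neighbours on chromosome 9. Antisense genes overlap exons of Runx1 (Gm26626), Runx2 (Runx2os1) and Ikzf2 (Gm29114), and whether counting used strand is not stated, so reads of these pairs cannot be told apart.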

How the data were processed

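The authors' count file holds whole-number reads of each gene in each cell. The authors also deposited log2(TPM/10 + 1) values, and these, back-transformed, kept a fixed ratio to the counts in a cell within 0.186%. The submitters' processing notes name TopHat2 2.1.1, HTSeq and mm10, and per the labels' protocols libraries followed a modified STRT protocol. Molecular identifiers are not stated, and PCR copies are not independent. Of 23154 entries, 27 with a date for a symbol (0.141% of the counts) were dropped. Cells with at least 1000 detected genes, 675 of 768, were summed by plate. No doublet caller was run, since the files are of plates of single cells.

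The gate was tested with edgeR 4.0.16 (glmQLFTest, TMM, filterByExpr, genotype as a term) over 10602 genes, and cell classes with plate as a term. The fit was tested on simulated data. Exact permutation was over plates. Intervals are exact Poisson, conditional binomial or Clopper-Pearson at 95%. Alternatives included DESeq2 1.42.0, limma 3.58.1, other filters and plates left out. Members and lists were chosen with earlier results of these data known. All members were named, in each list at most 6 called genes by adjusted p (1 that met this rule is not reported here), and the nearest genes by Pearson's r.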

Additional observations from a re-analysis of the deposited data

Results flagged for a closer look

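Ikzf2 had 123 to 151 CPM in the 4 mutant DN2-3 plates, against 264 CPM in WT DN2-3, which stood apart. The gap to the next plate was 0.80 of the whole range, above the critical value of 0.71 for 5 samples, in 1 of 9 genes checked. With cells thinned to 10000 counts the mutant plates ran from 121 to 235 CPM, against 291 CPM in WT, and the Vav-cre ratio was -0.30 in place of -0.76. Chance flags about 1 in 20 such groups.

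For 3 genes the mutant plates differed from WT in opposite directions in the gates, and this difference was not tested. Runx1 was below WT on all 4 DN2-3 plates and above WT on both DN1 plates, a difference between the mean log2 ratios of -2.15. In Vav-cre DN1 1 cell held 54.1% of the Runx1 counts, the ratio of 1.40 was 0.85 without it and the highest WT cell, and 14.3% of thinned cells held a count, against 19.8% in WT DN1. Ikzf2 did the same, with a difference of -1.70. Ikzf3 was above WT on all 4 DN2-3 plates and below WT on both DN1 plates, with a difference of 2.08. The interval of the first Lck-cre plate, 0.795-fold to 3.24-fold WT, includes no difference, all 14 counts of WT DN2-3 came from 1 cell, and with cells weighted equally the Lck-cre mean was -0.11, below WT. The plates of a gate share their WT plate, so 1 WT plate in each gate sets all of these signs.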

How the results depend on the processing

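The count of genes called between the gates, 709, was 1455 without the genotype term, 2017 with DESeq2, 1489 without the filter, 456 with counts of 1 to 5 set to 0, 1223 with cells weighted equally, 1777 on the deposited log2 values, 364 without the Lck-cre plates, 355 without the Tcf7-/- plates (the last chosen after seeing the data) and 321 to 647 without single plates. In those first 3 settings, with equal weights and on the deposited log2 values, Runx1 (1.18, 1.29, 1.33, 1.71 and 2.03) and Ikzf3 (-2.81, -2.53, -2.45, -2.23 and -1.40) passed the threshold. Runx2 passed with DESeq2 (-6.04) and without the filter (-5.36), ran from -7.82 to -3.50 without single plates, and was -2.28 without the genotype term, -1.31 with equal weights and -0.45 on the deposited log2 values. Runx3 ran from -2.22 to -1.66 without single plates and missed the threshold without the Tcf7-/- plates (-1.91). Without single plates Runx1 ran from 0.62 to 1.82 and Ikzf3 from -3.66 to -1.19, both nearest to no difference without a WT plate. Ikzf2 ran from -0.24 to 0.50, reversed without either WT plate. Ets1, Cbfb, Fli1, Ikzf1 and Ikzf2 were not called in any setting run. The cause of these changes was not tested.

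Genes called between NK receptor-positive and other cells, 37, were 21 with at least 2000 genes a cell and 58 with 6 counts of a marker; Runx3 reversed with DESeq2 (0.019), Runx3 (0.21), Ets1 (0.24) and Fli1 (-0.63) with 6 counts, and Ikzf3 (0.13) with 2000 genes. Leaving out a plate was not run there, since 1 would be left. Genes called between Cpa3-positive and Ptcra-positive cells, 28, were 121 with DESeq2, 78 without the filter and 43 to 54 without single plates, where Runx2 (-1.03 to 2.74), Ets1 (-0.41 to 0.46) and Cbfb (-1.14 to 0.38) changed sign. Members at least 2-fold from WT in Tcf7-/- DN2-3, 1, were 2 with 1 CPM added, 2000 genes, equal weights, thinned cells or the highest cells left out. In Vav-cre DN2-3 they were 2 of 4 with thinned cells, in Lck-cre 2 with equal weights or plate 1 alone and 0 thinned, in Tcf7-/- DN1 1 of 3 with equal weights, and in Vav-cre DN1 2 of 4 with equal weights or thinned cells. No paired analysis was possible because the gates share only replicate number 1; the gate fit itself compares the gates within genotypes.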
